A study of Mus musculus with 11 samples.

Results

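The 44 genes described here belong to cholesterol and fatty acid metabolism, and their transcripts were measured in the hypothalamus of male mouse offspring at P21 and compared between pups of dams on a high-fat diet and pups of dams on standard chow. The genes were chosen by name, from a list that was split here into 10 sterol synthesis enzymes, 5 genes of SREBP control, 2 genes of sterol and lipoprotein transport, 10 genes of fatty acid synthesis, 8 enzymes of fatty acid oxidation, 4 genes made up of the PPAR receptors with Pdk4, and 5 genes of fatty acid uptake, binding and activation. A gene had to have a probe well above background on at least 5 of 11 arrays, and its brightest probe stood for it. All 44 were measured, out of 17189 genes tested in all, and all 44 were well above background on all 11 arrays, so that no gene lay near this limit. The HFD group held 6 samples from male C57BL/6N offspring of dams fed the high-fat diet before conception, through gestation and through lactation, at P21. The CO group held 5 samples from male C57BL/6N offspring, also at P21, whose dams had standard chow over the same time and whose sample titles carry the letters SD. Sires of both groups were chow-fed outside mating. The labels name no engineered allele and no drug. Siblings could enter the same group, and the labels name neither the dam of a sample nor whether a sample was 1 animal, so the spread behind each p-value is that between the samples and may be partly technical. Diet before birth and diet through the milk cannot be told apart in this design.

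Cholesterol is built from acetyl-CoA through mevalonate, squalene and lanosterol, and the transcription factor SREBP-2 (gene Srebf2) drives the enzymes of this path while SREBP-1 (gene Srebf1) acts more on fatty acid synthesis. SCAP carries the SREBPs to the Golgi when sterols are scarce, and the INSIG proteins hold them back in the endoplasmic reticulum when sterols are plentiful. The brain makes nearly all of its own cholesterol, much of it for myelin around weaning age, and malonyl-CoA, which is the product of the acetyl-CoA carboxylases and the inhibitor of CPT1 at the entry to fatty acid oxidation, is known in the hypothalamus as a signal in the control of feeding.

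The values used are log2 signals relative to the 75th percentile of each array. A value of 0 is the brightness that 75% of mouse spots stay below, and levels of different genes are not comparable because each probe has its own brightness. Before scaling, the 75th percentile was 3135 to 3447 intensity units on the HFD arrays and 2216 to 2932 on the CO arrays. The HFD arrays had 71.8 to 77.4% of spots well above background and the CO arrays 82.5 to 85.7%. The groups were scanned 337 days apart, with different extraction protocols and on different slides, so group and scan session cannot be told apart for any gene below. Spike-in control probes, which bind RNA added at labelling, had log2 signals of 1.71 to 2.08 on the HFD arrays and 1.14 to 1.32 on the CO arrays (difference 0.67, two-sided p = 0.0022 by exact permutation, which is as small as 6 against 5 arrays can give). Scaling each array to these probes lowers every log2 difference by 0.67, and the sentences below say where this turns a direction. Of the hypothalamic markers, all 20 were measured, 18 were well above background on every array, 6 were higher in HFD samples and 2 lower. Markers of neighbouring regions moved with the group. Of 10 thalamus markers 6 were higher and 1 lower, with mean log2 deviations of 0.049 to 0.45 in HFD samples and -0.60 to 0.035 in CO samples, without overlap. Of 12 striatum markers 8 were lower and 0 higher, with -1.21 to 0.18 in HFD and -0.61 to 1.51 in CO samples. The hypothalamic markers had -0.37 to 0.35 in HFD and -0.24 to -0.069 in CO samples. HFD replicate 1 stood apart from the other HFD samples on 5 lists. It had -1.27 for choroid plexus markers (the others -0.20 to 0.32), -0.67 for ependyma and tanycytes (-0.025 to 0.059), -0.37 for hypothalamus (0.15 to 0.35), -1.19 for cortex and hippocampus (-0.25 to 0.19) and 0.77 for pituitary (-0.28 to 0.056). The part of the tissue taken in the results below was not tested. In whole tissue, fewer cells of a type and less RNA per cell cannot be told apart.

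Of the 44 genes, 9 were higher and 19 lower in HFD offspring and 16 did not pass the test (limma, adjusted p under 0.05 over all probes). Among all genes tested, 65.7% were called, 22.0% as higher and 43.8% as lower, against 63.6% of the 44, so the share called was near that of the rest. The median log2 difference was -0.15 over the 44 genes and -0.17 over all genes. The HFD and CO values did not overlap for 22 of the 44 genes, 5 of them with HFD above CO and 17 with HFD below, and for 46.6% of all genes. Without HFD replicate 1, 9 were higher and 21 lower. With spike-in scaling, 1 was higher and 37 were lower, and with the Rank Product test that the methods name, 0 were called in either direction at a percentage of false positives of 0.001 (of 43 genes ranked, 5 higher and 4 lower at an unadjusted one-sided p under 0.05). The differences of at least 2-fold were those of Cd36 and Fabp7, which were higher, and of Fads2, Srebf2 and Lss, which were lower.

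**Figure D1:**
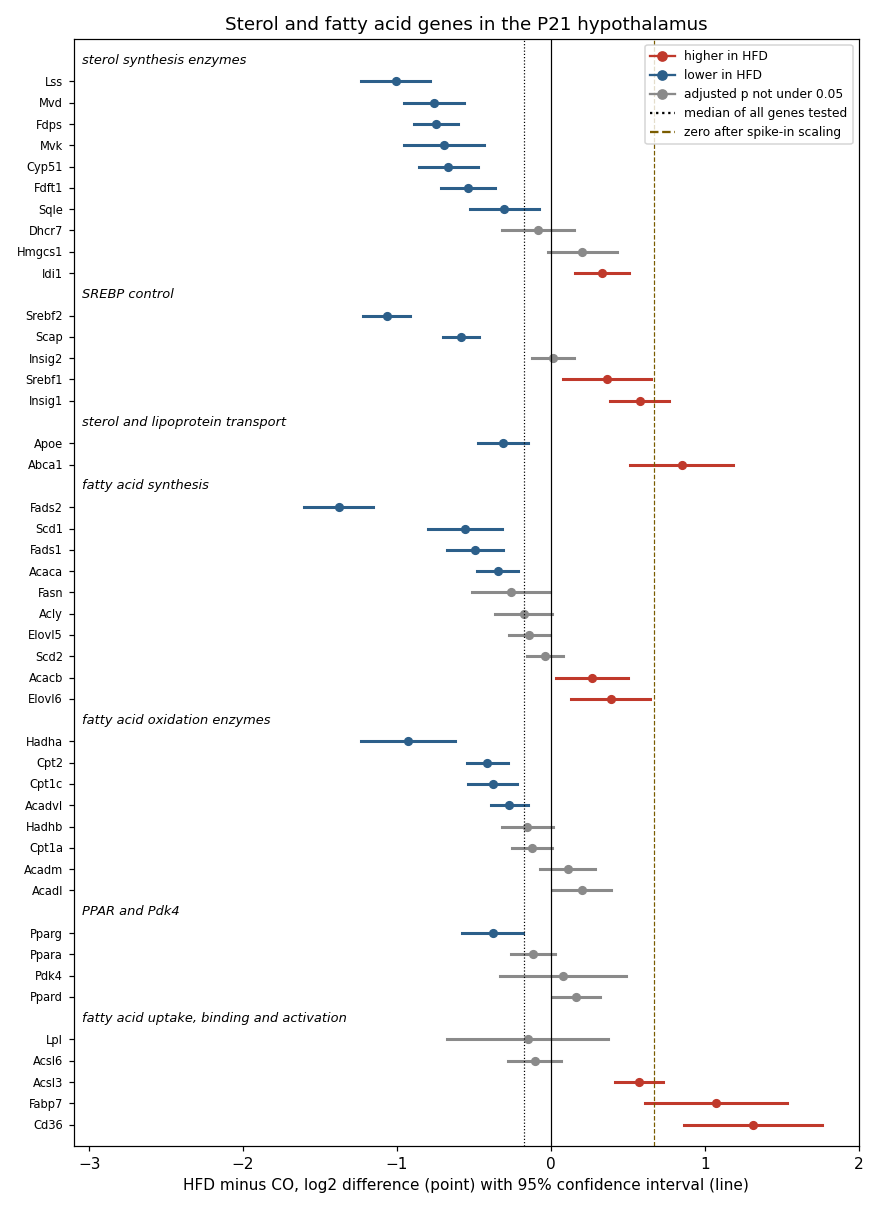
Log2 difference, HFD minus CO, of each of the 44 genes by functional group, with its 95% confidence interval on the horizontal axis; red is higher, blue lower and grey not past the test. Sterol synthesis enzymes lie mostly left of the dotted line at the median of all genes (-0.17), and of the genes called higher, only Abca1, Fabp7 and Cd36 lie right of the dashed line (0.67), where a difference would be 0 after spike-in scaling.

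Most sterol synthesis enzymes were lower in HFD offspring. Of 10 enzymes, 7 were lower, 1 was higher and 2 did not pass, with a median log2 difference of -0.60 beside -0.17 over all genes. The share called was 80%, beside 65.7% of all genes tested. The lower ones lay in the mevalonate part of the path (Mvk, Mvd, Fdps) and in the squalene and lanosterol part (Fdft1, Sqle, Lss, Cyp51). For all of them but Sqle, 6 of 10 enzymes, the 2 groups did not overlap, beside 46.6% of all genes tested. Leaving out any 1 array kept this median between -0.62 and -0.57.

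Lss, the lanosterol synthase that closes the sterol rings, had log2 levels of -2.01 to -1.55 (median -1.83) in the HFD samples, against -0.75, -0.73, -0.65, -0.93 and -0.87 in the CO samples. Every HFD sample lay below every CO sample. The log2 difference was -1.01 ± 0.10 (SE), a level 2.01-fold lower in HFD (adjusted p = 6.54e-06). Mvd, the decarboxylase that yields isopentenyl diphosphate, had log2 levels of -0.18 to 0.16 (median -0.011) in HFD offspring and 0.79, 0.88, 0.86, 0.47 and 0.73 in CO offspring, with a log2 difference of -0.76 ± 0.089 (adjusted p = 1.94e-05). CO replicate 4 was the lowest of its group here, yet above the highest HFD sample. Fdps makes farnesyl diphosphate, the branch point from which sterols, dolichol and prenyl anchors derive. Its log2 levels were 3.13 to 3.36 (median 3.26) in HFD offspring and 3.99, 4.12, 4.01, 3.86 and 4.03 in CO offspring, a tight split with a log2 difference of -0.75 ± 0.065 (adjusted p = 2.46e-06). For Mvk, mevalonate kinase, the HFD samples had log2 levels of 2.27 to 2.67 (median 2.35) and the CO samples 3.35, 3.11, 3.35, 2.78 and 2.87, with a difference of -0.69 ± 0.12 (adjusted p = 0.000325). HFD replicate 1 was the highest of its group for Mvk but still below the lowest CO sample. The other lower enzymes were Cyp51, the lanosterol demethylase (log2 difference -0.67 ± 0.087), Fdft1, the squalene synthase (-0.54 ± 0.080), and Sqle, the squalene epoxidase (-0.30 ± 0.10, adjusted p = 0.0204). The Sqle groups overlapped, and its adjusted p was 0.0613 after quantile normalization, 0.108 after scaling to the median and 0.0955 after normexp background correction.

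Idi1, the isomerase next to Mvd in the path, went the other way, with log2 levels averaging 2.73 ± 0.10 in HFD samples and 2.40 ± 0.15 in CO samples (SD) and a log2 difference of 0.33 ± 0.080 (adjusted p = 0.00329), which turned to -0.34 with spike-in scaling. Its groups overlapped, since CO replicate 3 lay above HFD replicate 4. Hmgcs1, the HMG-CoA synthase at the entry of the path and a classical SREBP target, did not pass the test. It had log2 levels of 5.48 to 5.61 (median 5.53) in the HFD samples and 5.53, 5.22, 5.65, 5.20 and 5.05 in the CO samples, so that the HFD samples were close together inside the wider CO range. Its log2 difference of 0.21 ± 0.10 had a 95% interval of -0.020 to 0.43, without CO replicate 3 it passed (0.29, adjusted p = 0.0158), and with spike-in scaling it was -0.47. Dhcr7, which makes cholesterol from its last precursor on one branch, had a log2 difference of -0.083 ± 0.11 with an interval of -0.32 to 0.15.

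The promoters of the sterol enzymes are known for the sterol regulatory element, the site where SREBPs bind, and for nearby boxes of the factor NF-Y. RefSeq windows of 300 bases (GRCm38.p6, 250 before to 50 after the start site) were at hand for 37 of the 44 genes, among them 7 sterol enzymes, and were not matched for Fdps, Fdft1, Sqle, Scd1, Scd2, Fads1 and Lpl. Both strands were searched for TCACNCCAC, where N is any base, and for CCAAT, and matches to both motifs did not overlap. Hmgcs1 was the only one of the 37 with TCACNCCAC, which 1.24% of all 32851 windows hold. The upstream part of its window is shown because it holds this element and Hmgcs1, like Idi1 and Dhcr7, was not among the lower enzymes. It lies on the plus strand at chr13:119690101-119690350, with capitals marking the TCACCCCAC match 137 bases before the start site and the 3 CCAAT boxes, which read ATTGG here because they lie on the other strand.
Hmgcs1: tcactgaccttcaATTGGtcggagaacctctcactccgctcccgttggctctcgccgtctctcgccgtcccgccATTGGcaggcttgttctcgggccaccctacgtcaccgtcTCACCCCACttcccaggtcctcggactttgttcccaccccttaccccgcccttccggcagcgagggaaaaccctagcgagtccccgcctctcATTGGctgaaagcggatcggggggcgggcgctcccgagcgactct
CCAAT was found for all 7 of the sterol enzymes with a window (Hmgcs1, Mvk, Mvd, Idi1, Lss, Cyp51 and Dhcr7), for 24 of the 37 genes, for 2 of the 8 oxidation enzymes and for 41.1% of all 27025 genes with a window. Mvk held 5 matches. Enzymes that were lower (Lss), higher (Idi1) and not past the test (Dhcr7) in HFD offspring all held the box.

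**Figure D2:**
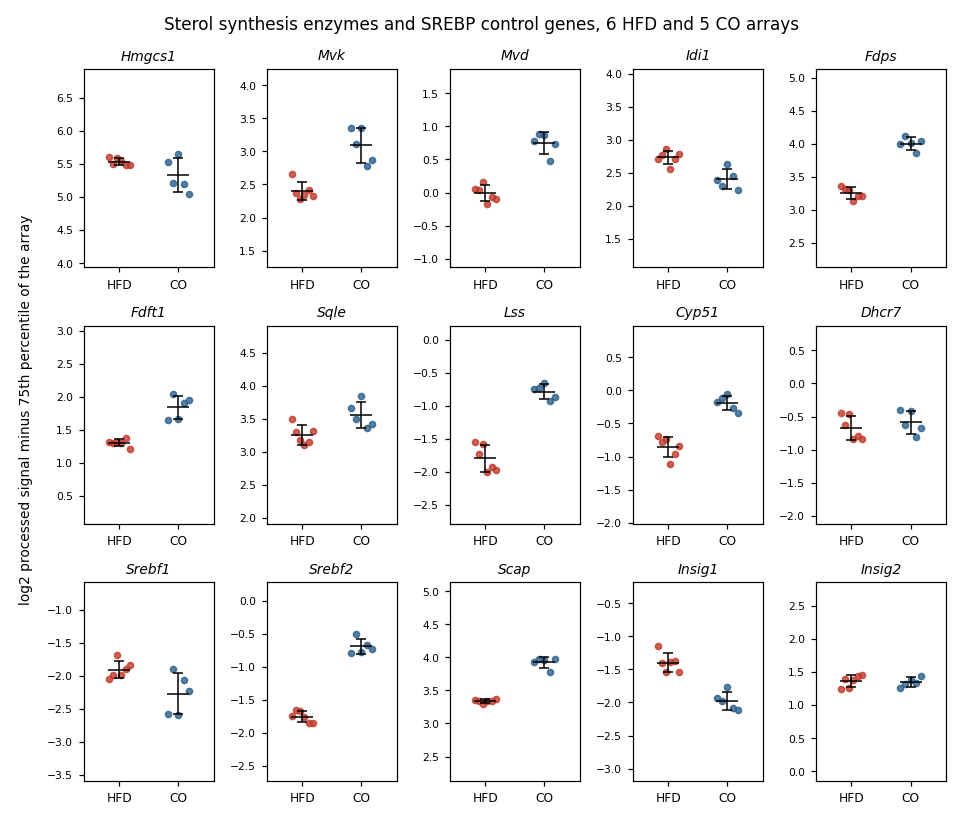
Log2 level, relative to the 75th percentile of the array, of each sterol synthesis enzyme and SREBP control gene in each sample (points), with mean and SD (bars), for 6 HFD and 5 CO samples; each panel spans 3 log2 units around its own mean. Lss, Fdps, Srebf2 and Scap separate the groups without overlap, while Hmgcs1, Dhcr7 and Insig2 overlap.

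Among 12 further enzymes and helpers of sterol synthesis from a list of pathway genes, 6 were lower, 2 were higher and 4 did not pass. Their median log2 difference was -0.15, near the -0.17 over all genes. Of all 98 further pathway genes, here and in the lists below, 62.2% were called, beside 65.7% of all genes tested. By list the share was 55 to 80%. Acat2, the cytosolic thiolase that starts the path, had a log2 difference of -0.62 ± 0.094, Nsdhl, a sterol dehydrogenase, of -0.62 ± 0.081, and Tm7sf2, a sterol reductase, of -0.45 ± 0.059. Ggps1, which takes farnesyl diphosphate to geranylgeranyl diphosphate and so away from sterols, was higher by 1.31 ± 0.086 and averaged 1.65 ± 0.093 in HFD and 0.34 ± 0.18 in CO samples (SD).

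Myelin is rich in cholesterol, so oligodendrocyte markers are set beside the enzymes. Of 12 such markers, all well above background on every array, 7 were lower, 1 was higher and 4 did not pass. The share called was 66.7%, near the 65.7% of all genes tested. Mbp, the major protein of compact myelin, had a log2 difference of -0.89, whereas Ermn was higher by 2.44. The median log2 difference of the 12 was -0.44 and the mean -0.14, and for 6 of them every HFD sample lay below every CO sample. Of all genes tested, 46.6% were without overlap in either direction. Their mean log2 deviation, which includes Ermn, was -0.18 to 0.074 in HFD samples and -0.079 to 0.22 in CO samples. That of the 10 sterol enzymes was -0.33 to -0.055 in HFD samples and 0.094 to 0.38 in CO samples, and did not overlap. CO replicate 1 had the lowest oligodendrocyte level of its group and CO replicate 3 the highest sterol enzyme level. Precursor markers had -0.26 to 0.046 in HFD and 0.10 to 0.23 in CO samples, also without overlap, and 4 of 6 were lower. Astrocyte markers, of a cell type that supplies cholesterol to neurons, had -0.14 to 0.078 in HFD and 0.0017 to 0.10 in CO samples, with 2 of 12 higher and 3 lower. The part of these cell types in the sterol result was not tested.

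The genes that control the SREBPs split by partner. Srebf2 and Scap were lower in HFD offspring, Insig1 and Srebf1 were higher, and Insig2 did not pass. The share called was 80% of these 5 genes, beside 65.7% of all genes tested. Srebf2 had log2 levels of -1.85 to -1.66 (median -1.75) in the HFD samples, against -0.80, -0.50, -0.77, -0.67 and -0.73 in the CO samples. The groups were far apart, with a log2 difference of -1.07 ± 0.070 or 2.09-fold lower in HFD (adjusted p = 3.93e-07). Scap had log2 levels of 3.30 to 3.37 (median 3.34) in HFD offspring and 3.93, 3.98, 3.96, 3.78 and 3.97 in CO offspring, with a difference of -0.59 ± 0.053 (adjusted p = 3.39e-06). The HFD samples lay within a narrow band below all CO samples, of which CO replicate 4 was the lowest.

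Insig1, itself a target of the SREBPs, had log2 levels of -1.53 to -1.14 (median -1.40) in the HFD samples and -1.94, -1.98, -1.77, -2.08 and -2.11 in the CO samples, all HFD samples being above all CO samples. Its log2 difference was 0.58 ± 0.087 (adjusted p = 0.00013), and -0.093 with spike-in scaling. Insig2, whose transcript is less dependent on SREBPs, had log2 levels of 1.24 to 1.45 (median 1.38) in HFD offspring and 1.26, 1.31, 1.38, 1.34 and 1.45 in CO offspring. These overlapped, with a difference of 0.011 ± 0.062 and an interval of -0.12 to 0.15. The second, dimmer Insig2 probe was lower (-0.30, adjusted p = 0.0113), and the mean over the 2 probes passed as lower (-0.14, adjusted p = 0.0328). Srebf1 had log2 levels of -2.05 to -1.68 (median -1.94) in HFD samples and -2.57, -1.90, -2.60, -2.06 and -2.23 in CO samples. CO replicate 2 lay within the HFD range and CO replicate 4 just below it, and the log2 difference was 0.36 ± 0.13 (adjusted p = 0.0274), or -0.31 with spike-in scaling. The Srebf1 call was lost without HFD replicate 3 (adjusted p = 0.0569), HFD replicate 6 (0.0501), CO replicate 1 (0.0700) or CO replicate 3 (0.0694), and after normexp background correction (0.125).

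Of 20 further genes of sterol control, uptake, export and turnover, 10 were lower, 1 was higher and 9 did not pass. Cyp46a1, the neuronal hydroxylase by which the brain exports excess cholesterol, averaged -1.63 ± 0.084 in HFD and -0.56 ± 0.21 log2 units in CO samples (SD), a log2 difference of -1.07 ± 0.094. Npc2, which moves cholesterol out of lysosomes, had a log2 difference of -0.60 ± 0.078. Vldlr, a receptor for APOE particles and reelin, was the gene that was higher, by 0.75 ± 0.11. The liver X receptors Nr1h3 and Nr1h2, which sense oxysterols and drive Abca1, had differences of -0.60 ± 0.071 and -0.55 ± 0.069 and were lower.

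The 2 transport genes moved in opposite directions. Abca1, the exporter that loads cholesterol onto apolipoproteins, was higher with log2 levels of 0.25 to 0.67 (median 0.35) in HFD samples, against -0.40, -0.70, -0.23, 0.050 and -0.85 in CO samples. CO replicate 4 came closest to the HFD samples without reaching them, and the log2 difference was 0.85 ± 0.15 or 1.8-fold (adjusted p = 0.000449). With spike-in scaling it was 0.18 and no longer passed (adjusted p = 0.266). Apoe, the main apolipoprotein of the brain and a product of astrocytes, had log2 levels of 6.36 to 6.65 (median 6.42) in HFD offspring and 6.73, 6.86, 6.69, 6.61 and 6.89 in CO offspring. The highest HFD sample, replicate 3, overlapped the lowest CO sample, replicate 4, and the difference was -0.31 ± 0.075 (adjusted p = 0.00326).

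In fatty acid synthesis the desaturases Fads2, Scd1 and Fads1 had the largest decreases, while the desaturase Scd2 did not pass the test. Of 10 genes, 4 were lower, 2 were higher and 4 did not pass, with a median log2 difference of -0.22 beside -0.17 over all genes. The share called was 60%, near the 65.7% of all genes tested. The lower ones were Fads2, Scd1, Fads1 and Acaca, all without overlap between groups, and the higher ones were Elovl6 and Acacb, both with overlap. Thus 4 of 10 genes did not overlap, beside 46.6% of all genes tested.

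Fads2 carries out the first desaturation on the way to long polyunsaturated fatty acids. It had log2 levels of -2.58 to -2.23 (median -2.42) in the HFD samples, against -1.30, -0.76, -1.16, -0.88 and -1.01 in the CO samples. All 6 HFD samples lay well below the lowest CO sample, with a log2 difference of -1.38 ± 0.10 or 2.6-fold lower (adjusted p = 8.72e-07), the largest decrease among the 44 genes. Fads1, the next desaturase of that path, had log2 levels of 0.66 to 0.90 (median 0.79) in HFD offspring and 1.14, 1.43, 1.26, 1.48 and 1.10 in CO offspring, with a difference of -0.49 ± 0.082 (adjusted p = 0.000263). Scd1, which makes oleate from stearate, had log2 levels of 1.02 to 1.64 (median 1.29) in HFD samples and 1.82, 1.89, 1.82, 2.01 and 1.70 in CO samples. HFD replicates 3 and 4 were the lowest and HFD replicate 1 the closest to the CO group, and the log2 difference was -0.56 ± 0.11 (adjusted p = 0.000898). Scd2, the main stearoyl-CoA desaturase of the mouse brain, had log2 levels of 5.77 to 5.89 (median 5.82) in HFD and 5.81, 5.93, 5.78, 5.85 and 5.94 in CO samples, which overlapped. Its difference was -0.037 ± 0.054 with an interval of -0.16 to 0.081, and after quantile normalization it passed at -0.16 (adjusted p = 0.0151).

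The acetyl-CoA carboxylases make malonyl-CoA, ACC1 (gene Acaca) in the cytosol for synthesis and ACC2 (gene Acacb) at the mitochondrion beside CPT1. Acaca had log2 levels of 2.41 to 2.68 (median 2.47) in HFD samples and 2.85, 2.85, 2.90, 2.84 and 2.78 in CO samples, without overlap, and a log2 difference of -0.35 ± 0.060 (adjusted p = 0.000367). Its 2 other probes, both far dimmer, were called in opposite directions, with log2 differences of -0.90 and 1.06, and the mean over the 3 probes was -0.063 (adjusted p = 0.521). Acacb had log2 levels of -0.034 to 0.58 (median 0.31) in HFD samples and -0.067, 0.074, 0.087, -0.11 and 0.18 in CO samples, with HFD replicate 1 inside the CO range. Its difference of 0.27 ± 0.11 was close to the threshold (adjusted p = 0.0441), turned to -0.40 with spike-in scaling, and lost its call without any 1 of HFD replicates 3, 4, 5 and 6 or CO replicates 1, 2, 3 and 4 (adjusted p 0.0509 to 0.0967). The second, dimmer Acacb probe gave -0.20 and did not pass, and the mean over its 2 probes was 0.031 (adjusted p = 0.789).

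Elovl6, which elongates palmitate to stearate, had log2 levels of 2.44 to 2.72 (median 2.53) in the HFD samples and 2.14, 1.85, 2.43, 2.45 and 1.92 in the CO samples. CO replicate 4 reached the lower end of the HFD range and CO replicate 3 lay just below it, and the difference was 0.39 ± 0.12 (adjusted p = 0.0119), or -0.28 with spike-in scaling and 0.32 (adjusted p = 0.0905) with normexp background correction. Elovl5, which elongates polyunsaturated chains, had log2 levels of 1.88 to 2.01 (median 1.95) in HFD and 1.96, 2.23, 2.02, 2.13 and 2.10 in CO samples, with a difference of -0.14 ± 0.061 and an interval of -0.27 to -0.0063. Acly, which supplies cytosolic acetyl-CoA, had a difference of -0.18 ± 0.082 over 10 values, 1 CO spot having been marked as an outlier. Fasn, the fatty acid synthase, had -0.26 ± 0.11 with an interval of -0.51 to -0.0086, and it passed without HFD replicate 1 (-0.34, adjusted p = 0.0091) or without CO replicate 5 (-0.31, adjusted p = 0.0390).

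Of 19 further genes of fatty acid synthesis and elongation, 11 were lower, 2 were higher and 6 did not pass, with a median of -0.32. Hsd17b12 and Tecr, which catalyse the ketoreductase and final reductase steps of every elongation cycle, had log2 differences of -1.65 ± 0.10 and -0.69 ± 0.075. Slc25a1, the citrate carrier that feeds Acly, had -0.71 ± 0.12. Mlxipl, the carbohydrate-responsive transcription factor ChREBP, had -0.68 ± 0.091.

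**Figure D3:**
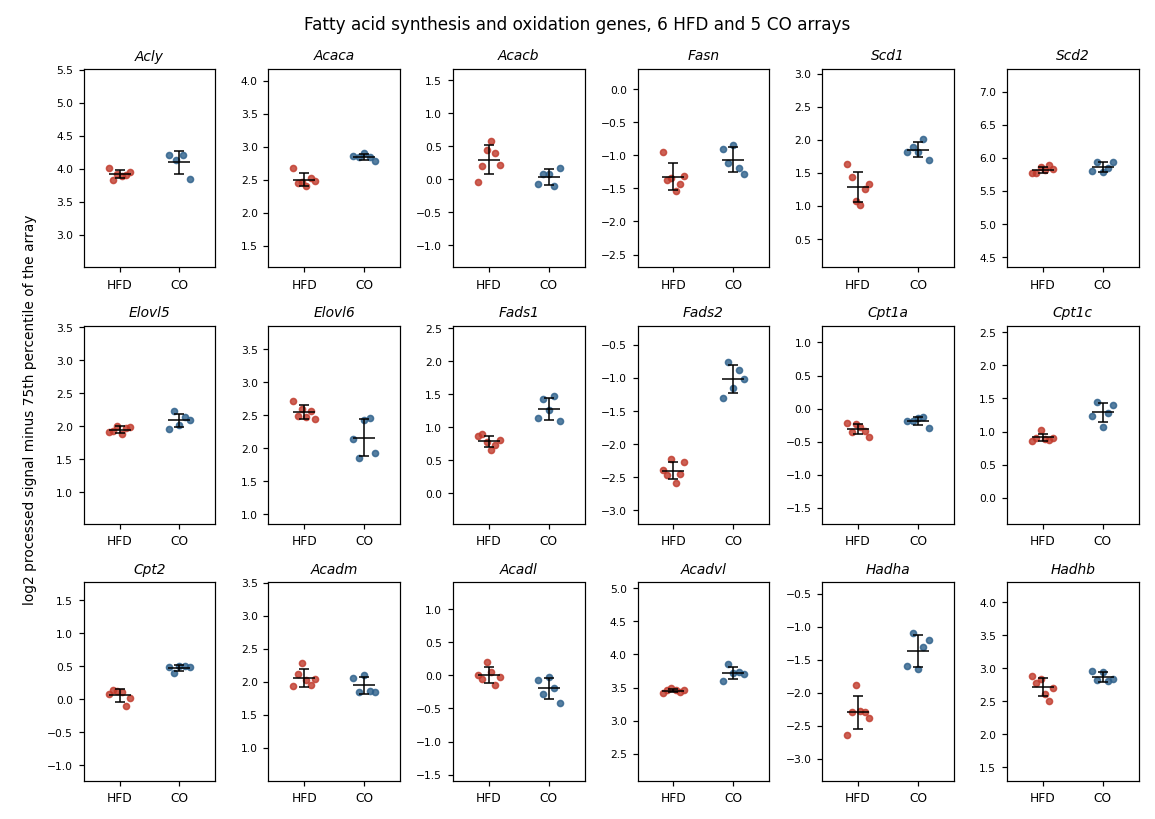
Log2 level, relative to the 75th percentile of the array, of the fatty acid synthesis genes and oxidation enzymes in each sample (points), with mean and SD (bars), for 6 HFD and 5 CO samples; each panel spans 3 log2 units around its own mean. Fads2 and Hadha show the largest differences between group means, and Scd2, Acadm and Hadhb overlap.

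Among the 8 enzymes of fatty acid oxidation, 4 were lower and 4 did not pass, with a median log2 difference of -0.21 beside -0.17 over all genes. The share called was 50%. Of all genes tested, 65.7% were called, 43.8% as lower, and 46.6% did not overlap between groups. By limma 0 were called higher, and at an unadjusted p under 0.05 there was 1, Acadl, with a log2 difference of 0.20 ± 0.086, an interval of 0.012 to 0.39 and an adjusted p of 0.0573. The lower ones were Hadha, Cpt2, Cpt1c and Acadvl, each without overlap between groups. Hadha, the alpha subunit of the mitochondrial trifunctional protein, had log2 levels of -2.65 to -1.88 (median -2.29) in HFD samples, against -1.60, -1.09, -1.64, -1.30 and -1.21 in CO samples. HFD replicate 3 was the highest and HFD replicate 1 the lowest of the HFD group, and the log2 difference was -0.93 ± 0.14 or 1.9-fold lower (adjusted p = 0.000124). Its partner subunit Hadhb, which is transcribed from the neighbouring gene in the opposite direction, had log2 levels averaging 2.72 ± 0.14 in HFD and 2.87 ± 0.074 in CO samples (SD). The Hadhb difference of -0.15 ± 0.076 did not pass (adjusted p = 0.0954), but passed without HFD replicate 1 (-0.18, adjusted p = 0.0490).

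Carnitine palmitoyltransferases carry fatty acids into mitochondria. Cpt2, on the inner membrane, had log2 levels of -0.11 to 0.14 (median 0.093) in HFD and 0.48, 0.39, 0.51, 0.50 and 0.49 in CO samples, with a difference of -0.41 ± 0.060 (adjusted p = 0.000102). CO replicate 2 was the lowest of a narrow CO group and still above every HFD sample. Cpt1c, the neuronal form that binds malonyl-CoA but has little transferase activity, had log2 levels of 0.86 to 1.02 (median 0.89) in HFD and 1.23, 1.45, 1.07, 1.29 and 1.40 in CO samples, with a difference of -0.38 ± 0.073 (adjusted p = 0.00075). HFD replicate 3, the highest of its group, came within a small distance of CO replicate 3, the lowest of the other. Cpt1a, the active form in most cells, had log2 levels of -0.43 to -0.21 (median -0.31) in HFD and -0.18, -0.18, -0.14, -0.13 and -0.30 in CO samples. Its groups overlapped through CO replicate 5, and the difference was -0.12 ± 0.060 with an interval of -0.25 to 0.0098.

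The acyl-CoA dehydrogenases are divided by chain length. Acadvl, for very long chains, had log2 levels of 3.42 to 3.49 (median 3.46) in HFD samples and 3.61, 3.85, 3.72, 3.73 and 3.71 in CO samples, with a difference of -0.27 ± 0.055 (adjusted p = 0.00106). Acadm, for medium chains, had 0.11 ± 0.082 with an interval of -0.071 to 0.29 and did not pass, and like Acadl, for long chains, it turned below 0 with spike-in scaling (-0.56 for Acadm and -0.47 for Acadl). Of 25 further oxidation genes, 13 were lower, 2 were higher and 10 did not pass. Crat and Slc25a20, the carnitine acetyltransferase and the acylcarnitine carrier, had log2 differences of -1.18 ± 0.085 and -0.92 ± 0.10. Acaa2 and Acads, the mitochondrial thiolase and the short-chain dehydrogenase, had -0.85 ± 0.068 and -0.75 ± 0.10. In ketone body metabolism, with 5 genes measured, Bdh1, the hydroxybutyrate dehydrogenase, was lower, with a log2 difference of -1.82 ± 0.12, and averaged 1.24 ± 0.19 in HFD and 3.05 ± 0.24 in CO samples (SD). Acat1, the mitochondrial thiolase of ketone use, was higher (0.46 ± 0.055), and so was Oxct1, which activates acetoacetate (0.25 ± 0.10, adjusted p = 0.0495), though both lie below 0 with spike-in scaling.

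Of the PPAR receptors, which are switched on by fatty acids, and Pdk4, their target that turns pyruvate away from oxidation, 1 gene was lower and 3 did not pass. The share called was 25%, beside 65.7% of all genes tested. Pparg had log2 levels of -3.46 to -3.31 (median -3.40) in the HFD samples, against -3.18, -3.04, -3.07, -3.12 and -2.65 in the CO samples. CO replicate 5 was far above the others, and the difference was -0.38 ± 0.091 (adjusted p = 0.00318), which did not pass after normexp background correction (-0.25, adjusted p = 0.368). Ppara had a difference of -0.12 ± 0.066 (interval -0.26 to 0.029) and Ppard of 0.16 ± 0.071 (interval 0.0061 to 0.32). Ppard passed without HFD replicate 5 (0.19, adjusted p = 0.0330) or CO replicate 2 (0.19, adjusted p = 0.0444) and was -0.51 with spike-in scaling. Pdk4 had log2 levels of -2.42 to -1.43 (median -2.24) in HFD and -2.17, -1.73, -2.14, -2.56 and -2.38 in CO samples. HFD replicate 3 was the highest of all samples, and the difference of 0.078 ± 0.19 had an interval of -0.33 to 0.49, turning to -0.59 with spike-in scaling.

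By the brightest probes, fatty acid uptake, binding and activation was the group whose called members were all higher, 3 of 5 genes. The share called was 60%, near the 65.7% of all genes tested. The median log2 difference was 0.57 on the 75th percentile scale, and Acsl3 lay below 0 with spike-in scaling. The second probes of Acsl6 (-1.85) and Lpl (-0.64) were called lower. With spike-in scaling, Acsl6 (-0.77) and Lpl (-0.82) were also lower by the brightest probe. Cd36, the fatty acid translocase, had log2 levels of -5.64 to -4.86 (median -5.34) in the HFD samples, against -7.28, -6.74, -6.42, -6.10 and -6.55 in the CO samples. No CO sample reached the HFD range, with a log2 difference of 1.31 ± 0.20 or 2.49-fold (adjusted p = 0.000163), and Cd36 was the gene that stayed higher with spike-in scaling (0.64). Its probe was dim on the array scale, and with normexp background correction the difference was 0.42 and did not pass (adjusted p = 0.477). Cd36 is known in brain from endothelium and microglia as well as from some neurons. Endothelial and pericyte markers had mean log2 deviations of -0.050 to 0.19 in HFD and -0.13 to 0.061 in CO samples, with 6 of 12 higher and 3 lower on the 75th percentile scale, and microglial markers had -0.25 to 0.087 in HFD and 0.027 to 0.15 in CO samples, with 3 of 12 higher and 6 lower. The part of these cells in the Cd36 difference was not tested.

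Fabp7, the fatty acid binding protein of radial glia, astrocytes and tanycytes, had log2 levels of 2.33 to 3.14 (median 2.81) in HFD offspring and 1.86, 1.50, 2.22, 1.94 and 1.03 in CO offspring. The groups came close at HFD replicate 4 and CO replicate 3 without overlapping, and the log2 difference was 1.07 ± 0.21 or 2.1-fold (adjusted p = 0.000819), or 0.40 and not past the test (adjusted p = 0.0953) with spike-in scaling. Acsl3, which activates fatty acids at the endoplasmic reticulum and lipid droplets, had log2 levels of 1.91 to 2.11 (median 1.97) in HFD samples and 1.48, 1.23, 1.54, 1.51 and 1.31 in CO samples. These did not overlap, with a difference of 0.57 ± 0.072 (adjusted p = 3.29e-05), or -0.098 with spike-in scaling. Acsl6, the acyl-CoA synthetase tied to docosahexaenoate in neurons, had log2 levels of 1.84 to 1.92 (median 1.87) in HFD and 1.79, 2.10, 1.83, 2.22 and 1.95 in CO samples, with a difference of -0.10 ± 0.079 and an interval of -0.28 to 0.069. Lpl, which frees fatty acids from lipoproteins, varied most within the HFD group, with log2 levels of -2.42 to -1.24 (median -1.57) in HFD and -1.11, -1.52, -1.86, -1.99 and -1.11 in CO samples and a difference of -0.15 ± 0.24 (interval -0.67 to 0.37). Of 17 further genes of uptake, storage and activation, 8 were lower, 2 were higher and 7 did not pass. Acsl4, which activates arachidonate, was higher by 1.42 ± 0.16, and Lpin1, Dgat1 and Lipa, which make and break glycerolipids and lysosomal lipid esters, had -0.86 ± 0.092, -0.79 ± 0.065 and -0.66 ± 0.10.

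Several of these genes have a close relative on the list, and the ratio of their brightest probes on the same array does not depend on the factor by which an array is scaled. The 8 pairs were tested by exact permutation of the samples, two-sided, with adjustment over the 8 pairs, a test chosen after the data had been seen. The pairs were picked for differing calls in the same fit, although Fads1 and Fads2 were both lower. Each ratio has the gene with the higher log2 difference on top, so its direction was set by the data beforehand. A pass is thus no support beyond the calls themselves. All 8 ratios passed (adjusted p 0.0035 to 0.0152), and the smallest p possible is 0.0022 before adjustment. Of all 903 pairs among the 43 listed genes with a value on every array, 73.3% had an unadjusted p under 0.05 and 54.4% did not overlap between groups, against 5 of these 8 without overlap, so a differing ratio was common on the list. The ratios are those of the brightest probes only. Other probes differed from the brightest for Acaca (log2 differences -0.90 and 1.06), Acsl6 (-1.85), Acacb (-0.20), Cpt1a (-0.69) and Insig2 (-0.30). The second Cpt1a probe lay below both Cpt1c probes (-0.38 and -0.44), so that ratio depends on the probe. So does Acacb over Acaca, since the Acaca probe at 1.06 lay above both Acacb probes (0.27 and -0.20). By the mean over probes, Acacb had 0.031 and Acaca -0.063. The widest was Srebf1 over Srebf2, with a log2 ratio 1.43 higher in HFD samples, all 6 of them above every CO sample (adjusted p = 0.0035). Fads1 over Fads2 was higher by 0.88, although both were lower in HFD, and Acsl3 over Acsl6 by 0.68, each in 6 of 6 HFD samples above every CO sample. Insig1 over Insig2 was higher by 0.57 and Elovl6 over Elovl5 by 0.53, again in 6 of 6. Acacb over Acaca was higher by 0.61 with 5 of 6 HFD samples above every CO sample, and Scd2 over Scd1 by 0.52 with 5 of 6. Cpt1a over Cpt1c had the smallest shift, 0.26, with 3 of 6 (adjusted p = 0.0152).

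**Figure D4:**
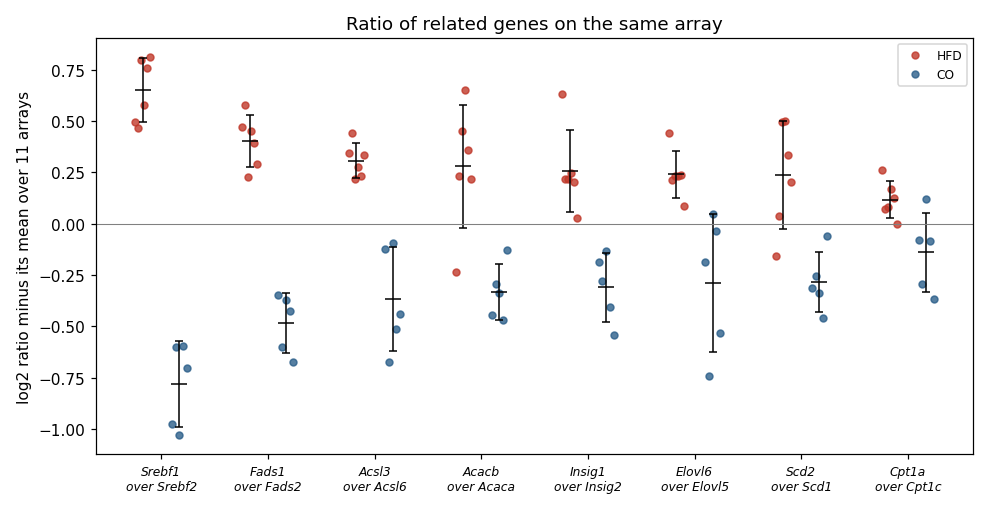
Log2 ratio of related genes on the same array, minus its mean over the 11 arrays, in each sample (points) with mean and SD (bars), HFD left of CO for each pair. Srebf1 over Srebf2 has the largest difference between group means (1.43), and Cpt1a over Cpt1c has the smallest (0.26) and overlaps.

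More than 1 probe passed the background filter for 13 of the 44 genes, and these probes can bind different parts or forms of the transcript. All probes had the same call for 5 genes, some but not all passed the test for 7, and calls were opposite for 1, Acaca. Of the 15 probes that were not the brightest, 10 were lower, 1 was higher and 4 did not pass, with a median log2 difference of -0.64. Srebf2, Mvk, Cpt1c and Cpt2 were lower by every probe, the second probes having log2 differences of -1.44, -0.68, -0.44 and -1.16. Acly and Acsl6 did not pass by the brightest probe but were lower by the dimmer one (-1.33 and -1.85). The second probe of Cpt1a gave -0.69 and that of Lpl -0.64, both lower, whereas that of Fdft1 gave -0.11 and did not pass.

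Within groups the 44 genes had a median SD of 0.11 in HFD and 0.15 in CO samples, beside 0.13 in HFD and 0.16 in CO samples over all genes. The SD was larger in CO samples for 26 of the 44. Cd36, Fabp7, Lpl and Abca1 had SDs of 0.44, 0.46, 0.41 and 0.36 in CO samples, where Scap, Scd2 and Cpt2 had 0.081, 0.071 and 0.047. Averaged over a functional group, sterol enzymes, fatty acid synthesis, fatty acid oxidation and SREBP control had lower means in every HFD sample than in any CO sample, and uptake, binding and activation had higher ones on the 75th percentile scale. The differences of these means were -0.43 for sterol enzymes, -0.27 for fatty acid synthesis, -0.24 for oxidation and -0.14 for SREBP control. The median over all genes was -0.17, and how often other gene lists of these sizes would separate was not tested. In SREBP control 2 genes were higher and 2 lower. The mean log2 deviation of fatty acid synthesis was -0.20 to -0.040 in HFD and 0.088 to 0.19 in CO samples. For fatty acid oxidation it was -0.20 to 0.045 in HFD and 0.11 to 0.16 in CO samples, with HFD replicate 3 nearest to the CO group. For uptake, binding and activation it was 0.079 to 0.34 in HFD and -0.38 to -0.17 in CO samples. Neuronal markers also lay higher in HFD samples on this scale, though not with spike-in scaling, with 0.022 to 0.27 in HFD and -0.24 to -0.11 in CO samples, and their part in it was not tested.

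**Figure D5:**
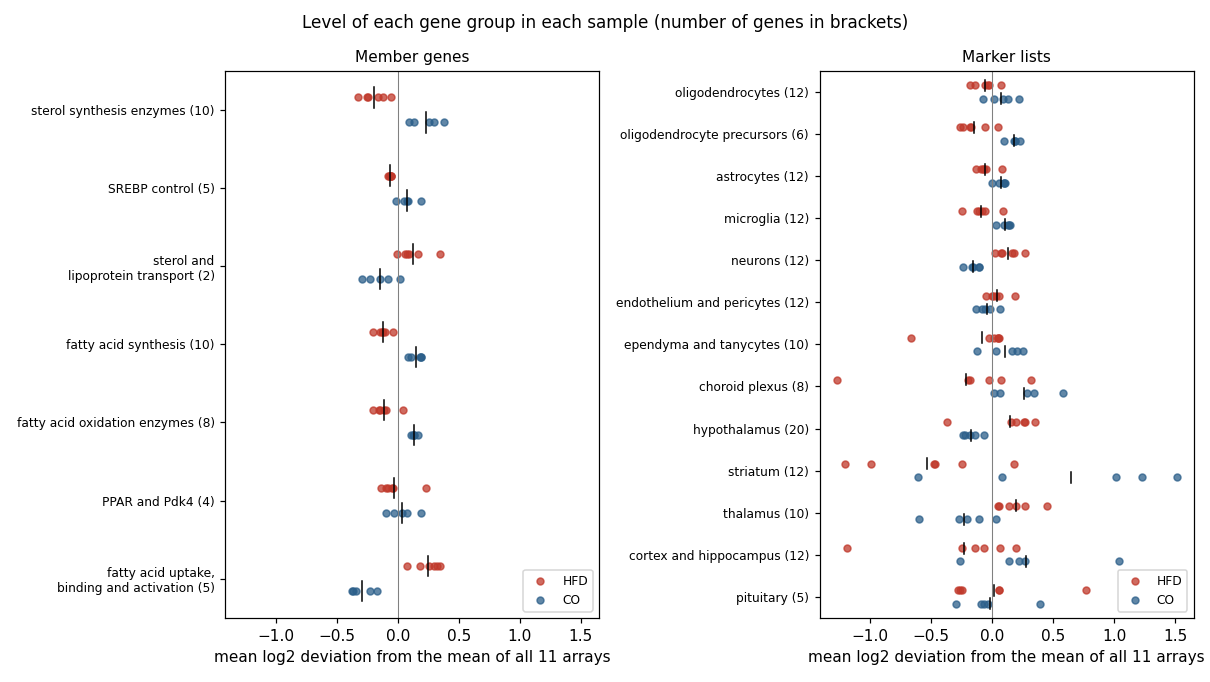
Mean log2 deviation from the mean of all 11 arrays of each functional group (left) and each marker list (right) in each sample; points are samples, black bars group means, HFD above CO in each row. Sterol enzymes and uptake genes separate HFD from CO samples, and so do the markers of neurons, oligodendrocyte precursors and thalamus, while striatal markers spread from -1.21 to 1.51 and overlap.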

How the data were processed

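Total RNA of 6 HFD and 5 CO hypothalami was labelled with Cy3 and hybridised to Agilent 4x44K mouse arrays. The authors deposited scanner output, whose processed signals are intensity values with background already subtracted by Feature Extraction (version 10.8 in the submitters' processing notes, 10.7.3.1 in the file headers). Log2 of the processed signal minus the 75th percentile of each array was used, without control and outlier spots, and spots of a probe were averaged. Accessions were matched to RefSeq genes, for 26369 of 39429 mouse probes. The 31796 probes that were well above background on 5 or more of the 11 arrays were fitted with limma 3.58.1 (lmFit, eBayes; R 4.3.3, data.table version 1.17.8, statmod 1.5.0). Tests were two-sided, p-values were adjusted by Benjamini-Hochberg across these probes, and the threshold was 0.05. A gene was its brightest probe. The fit was tested on simulated data. The number of arrays limits precision.

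The genes and lists were chosen with earlier results of these data known. Values by sample (for the 6 HFD samples as lowest, median and highest) are given for up to 4 called genes of each group with the largest differences (3 in groups of 5 or fewer), for related pairs, and for genes whose probes were called in opposite directions, and also for some uncalled genes outside this rule (Hmgcs1, Pdk4 and Lpl among them). Of the other pathway lists, up to 4 called genes are named. Some genes that this rule would name are not reported here, but the counts and medians include them. Nr1h3 and Nr1h2 were named after their values had been seen. Other settings tried were scaling to the spike-in probes or the median, quantile normalization, normexp (offset 50, on the median signal because the files used here give no mean signal), other probe filters, the mean over probes, blocks, array weights, an exact Mann-Whitney test, the Rank Product test of the methods (100 permutations), stricter thresholds and leaving out each array. No array was identical to another.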

Additional observations from a re-analysis of the deposited data

Results flagged for a closer look

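Single samples stood far from the others of their group in 10 of 102 groups of values examined, or 9.8%, where chance gives about 5%. HFD replicate 3 accounted for 5 of these. It was lowest for Scap (log2 level 3.30) and highest for Apoe (6.65), Cpt1c (1.02) and Pdk4 (-1.43), and it was highest for the mean level of the PPAR receptors and Pdk4 (0.23). HFD replicate 1 was highest for Mvk (2.67). In the CO group, replicate 4 was lowest for Scap (3.78), replicate 5 was lowest for Cpt1a (-0.30) and highest for Pparg (-2.65), and replicate 2 was lowest for Cpt2 (0.39). No cause of these values was tested. The call of Scap, Apoe, Cpt1c, Mvk, Pparg and Cpt2 was the same without the sample named, and so was the absence of a call for Pdk4 and Cpt1a.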

How the results depend on the processing

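Group and scan session cannot be told apart, and scaling decides many directions. With spike-in scaling 1 of the 44 genes was higher and 37 were lower, 2 of the other pathway genes were higher and 92 lower, and the median log2 differences were -1.27 for sterol synthesis enzymes and -0.88 each for fatty acid synthesis and oxidation. Directions turned for Hmgcs1 (-0.47), Idi1 (-0.34), Srebf1 (-0.31), Insig1 (-0.093), Insig2 (-0.66), Acacb (-0.40), Elovl6 (-0.28), Acadm (-0.56), Acadl (-0.47), Ppard (-0.51), Pdk4 (-0.59) and Acsl3 (-0.098). Of all genes called, 33.4% were higher, against 6.2% with spike-in scaling, which put the median of all genes at -0.84. That share was 41.3% with normexp, which called 35.4% of genes. Other pathway genes called higher numbered 17 after quantile normalization. The median of fatty acid synthesis was -0.16 with scaling to the median, -0.10 with the mean over probes and -0.29 with array weights, and that of oxidation was -0.34 with the mean over probes, which put Insig2 at -0.14. By the Rank Product test 0 of the 44 genes and 0 of the 98 others were called higher or lower, and 3.48% of all genes were called. At an adjusted p under 0.001, 5 of the 44 were higher, and 5 other pathway genes were higher and 32 lower. With at least 2-fold, 2 of the 44 were higher and 3 lower, and 2 and 5 of the others. The causes were not tested, except that stricter thresholds call fewer genes by construction.

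Leaving out each array gave 7 to 10 higher and 19 to 21 lower of the 44, 9 to 16 and 48 to 51 of the others, and medians of -0.62 to -0.57 (sterol enzymes), -0.28 to -0.18 (fatty acid synthesis) and -0.23 to -0.19 (oxidation). Besides the calls named above, Acly passed without CO replicate 4 (-0.26, adjusted p = 0.0049), Elovl5 without CO replicate 1 (-0.17, 0.0318), and Acadl without HFD replicate 5 (0.23, 0.0412), CO replicate 1 (0.23, 0.0472) or CO replicate 3 (0.24, 0.0306). Same-numbered samples did not deviate together (correlations -0.087 to 0.22, and for 1 of 5 HFD samples the closest CO sample had its own number), so the numbers do not pair samples. With the replicate block, 60.6% of genes were called, 8 of the 44 were higher and 20 lower, and Srebf1 and Acacb no longer passed while Fasn and Acadl did. With slide as a random block (estimated correlation -0.036) no call of the 44 was lost, and 67.7% of all genes were called, against 65.7% in the main fit. Each slide held 1 group only and the correlation was below 0. This fit could therefore hardly lose a call, and it cannot tell slide from group. With the leading number of the CO titles as a random block (estimated correlation 0.018), all 44 genes kept direction and call. These numbers group CO samples only, and each HFD sample was a block of its own. With so small a correlation, this fit too could hardly change a call. Over 1187 combinations of gene and alternative, 1040 kept direction and call, 88 lost the call, 46 gained it and 13 turned.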
